A study of Homo sapiens with 11 samples.

Results

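The brush border peptidases and enzymes were followed in HK2 cells through 9 genes, taken by name: GGT1, ANPEP, DPP4, MME, ACE, ENPEP, ALPL, TREH and MEP1A. All 9 were found among the 58243 genes of the RNA-seq files, and all 9 belonged to the 19645 protein-coding genes that matched the GRCh37 annotation by Ensembl identifier. HK2 is an immortalised epithelial cell line from the proximal tubule of an adult human kidney. The cells came from ATCC and were all grown in DMEM-F12 with FBS, penicillin-streptomycin and DMSO, so the samples form a single condition and hold no contrast between treatments. The data were RNA-seq of RNA depleted of ribosomal RNA in 2 libraries and ChIP-seq of H3K4me3, H3K27ac and H3K27me3 in 2 replicates each. The HiChIP and input DNA libraries of the study were not used here.

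The brush border is the carpet of microvilli on the side of the proximal tubule cell that faces the filtrate. Enzymes anchored in this membrane with their active sites outward trim peptides, remove phosphate, split disaccharides and begin the breakdown of glutathione, so that amino acids and other products can be taken back up. The same enzymes cut circulating peptides such as angiotensins, and they are long-standing markers of the proximal tubule and of the small intestine. H3K4me3 is a histone mark of promoters, H3K27ac of active promoters and enhancers, and H3K27me3 of genes repressed by Polycomb.

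The levels below are FPKM, fragments per kilobase of transcript scaled to the mapped fragments of the library, summed over the transcripts of a gene. Aligned bases, computed from the deposited coverage, came to 5.67 Gb in library 1 and 5.52 Gb in library 2. Epithelial markers were present, with 4 of 5 at an FPKM of 1 or more in both libraries, against 58.8% of protein-coding genes. Among them were KRT8 at 182 ± 3.73 and KRT19 at 123 ± 0.187 (SD, n = 2 libraries). The exception was CDH1, the gene of the epithelial adhesion protein E-cadherin, at 0.210 and 0.283, with peaks of all 3 marks at its starts in both replicates. Of 10 proximal tubule markers only SLC5A2, the sodium-glucose cotransporter of the early tubule, reached that level, at 1.96 ± 0.565, and the endocytic receptor gene LRP2 was listed at 0 in both libraries. Of 10 markers of podocytes, other tubule segments, endothelium, leukocytes and stroma, the collagen gene COL1A1 reached an FPKM of 1, at 40.1 ± 0.290. In both libraries 4 were listed at 0, while 25.2% of protein-coding genes were at 0 in 1 library or both. Epithelial markers other than CDH1 were thus present, while the other 9 markers of the proximal tubule did not reach an FPKM of 1 in both libraries. The labels do not say whether the libraries came from separate cultures, and an SD measures only the spread between them.

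Before the levels, the DNA just upstream of the genes can be compared, because the peaks described later lie over it. The stretches below were read from GRCh37, 5′ to 3′ on the strand of the gene, from the 300 bases before the canonical transcription start site (TSS), leaving out annotated exons of any gene. CpG dinucleotides, the substrate of DNA methylation in vertebrates, are in capitals. They are chr22:24998860-24999113 on the plus strand for GGT1, chr15:90358097-90358384 on the minus strand for ANPEP, chr4:111397011-111397310 on the plus strand for ENPEP, chr11:118550400-118550659 on the minus strand for TREH and chr6:46760826-46761125 on the plus strand for MEP1A. These 5 are shown because they span the mark patterns described below, from both promoter marks (GGT1) through H3K4me3 with H3K27me3 (ANPEP, and in 1 replicate ENPEP) to no peak (TREH and MEP1A).
GGT1: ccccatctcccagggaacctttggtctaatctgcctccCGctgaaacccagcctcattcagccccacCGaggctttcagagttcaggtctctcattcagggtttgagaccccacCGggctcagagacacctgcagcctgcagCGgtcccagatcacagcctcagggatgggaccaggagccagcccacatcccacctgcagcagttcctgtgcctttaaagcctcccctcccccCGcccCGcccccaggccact
ANPEP: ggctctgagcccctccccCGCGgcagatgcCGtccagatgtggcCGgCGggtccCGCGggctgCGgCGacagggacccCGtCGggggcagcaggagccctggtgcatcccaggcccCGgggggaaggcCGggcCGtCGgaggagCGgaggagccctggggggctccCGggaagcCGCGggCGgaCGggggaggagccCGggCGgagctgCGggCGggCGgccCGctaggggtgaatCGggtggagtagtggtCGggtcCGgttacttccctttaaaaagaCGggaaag
ENPEP: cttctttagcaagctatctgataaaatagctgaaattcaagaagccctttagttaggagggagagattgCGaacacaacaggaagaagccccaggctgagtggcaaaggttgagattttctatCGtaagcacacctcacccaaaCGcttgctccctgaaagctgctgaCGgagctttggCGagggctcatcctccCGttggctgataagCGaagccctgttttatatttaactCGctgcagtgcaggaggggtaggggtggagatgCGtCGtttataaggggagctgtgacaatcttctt
TREH: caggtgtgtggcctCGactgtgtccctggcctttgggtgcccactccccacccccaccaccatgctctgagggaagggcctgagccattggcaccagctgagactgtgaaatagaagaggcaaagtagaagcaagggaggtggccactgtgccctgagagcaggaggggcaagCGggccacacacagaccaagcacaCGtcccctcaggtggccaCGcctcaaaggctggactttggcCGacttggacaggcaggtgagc
MEP1A: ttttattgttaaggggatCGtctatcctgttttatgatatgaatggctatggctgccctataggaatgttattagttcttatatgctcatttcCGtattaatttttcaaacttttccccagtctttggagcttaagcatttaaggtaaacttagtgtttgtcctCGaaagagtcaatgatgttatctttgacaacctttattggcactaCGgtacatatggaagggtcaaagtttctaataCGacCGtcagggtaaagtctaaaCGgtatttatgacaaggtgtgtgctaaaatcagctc

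The whole 300-base windows fell into groups by CpG content. ALPL held 36 CpG, ACE 35, ANPEP 31, DPP4 27 and MME 21, at or above the median of 21 over 19547 protein-coding genes. ENPEP held 10, MEP1A 7, and GGT1 and TREH 6 each. The genes with an H3K4me3 peak in both replicates within 1 kb of the canonical TSS had a median of 26 CpG, with the middle 50% of them between 19 and 34, and genes without any peak there had a median of 3. GGT1 and ENPEP therefore lay below that range although their starts carried the mark, while TREH and MEP1A were near the genes without a peak. The letters GGGCGG, a GC box, occurred on either strand in 5 of the 9 windows (ACE, ALPL, ANPEP, DPP4 and GGT1), against 61.3% of all windows. The letters TATAAA, the box bound by the TATA-binding protein, occurred on either strand in 3 of 9 windows, those of ENPEP, ALPL and ACE, against 11% of all windows. GTTAAT, the half-site of the HNF1 factors, occurred on either strand in 0 of 9 windows and in 5.45% of all windows. None of the 3 motifs contains another, and a match describes the letters only.

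The 9 genes spanned more than 3 orders of magnitude in FPKM in library 1. The median of their mean levels was 0.407, against 3.32 over all protein-coding genes. At an FPKM of 1 or more in both libraries there were 3 of 9, GGT1, DPP4 and MME, while 58.8% of protein-coding genes passed the same threshold, and the same 3 passed at 5 (43.1% of genes). At 0.5 there were 4 of 9, with ENPEP added (62.3% of genes). On the TPM scale, where values were 2.76 and 2.78 times the FPKM in libraries 1 and 2, 5 of 9 reached 1 in both libraries, with ENPEP and ALPL added (63.8% of genes). In whole cultures, expression in fewer cells and less RNA per cell cannot be told apart.

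**Figure D1:**
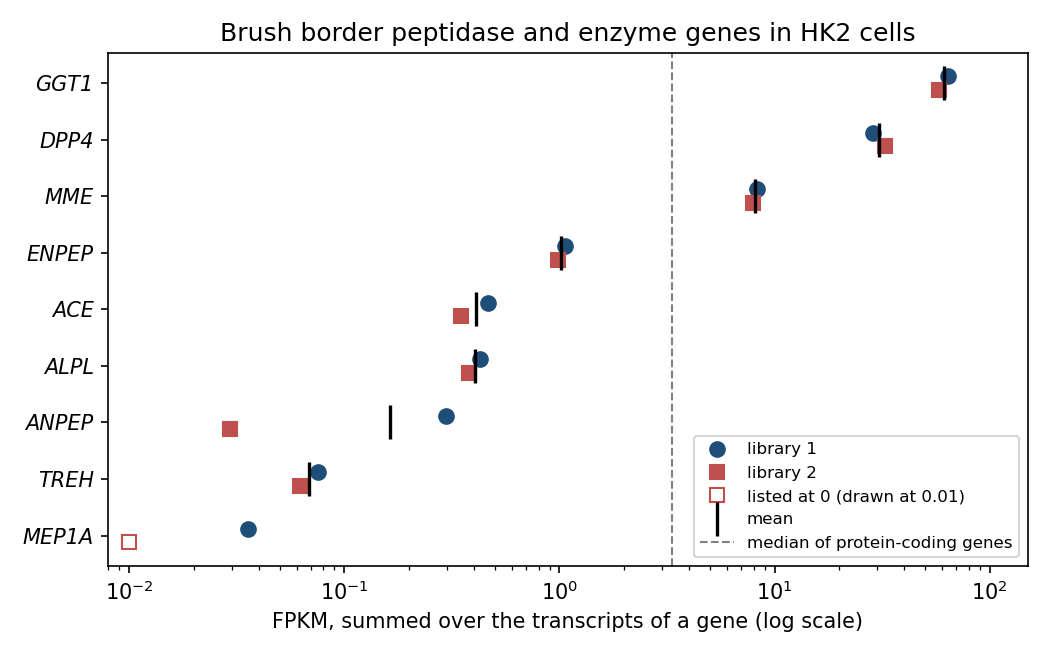
FPKM of each gene in library 1 (circles) and library 2 (squares) on a log scale, with the mean as a black bar and the median of protein-coding genes, 3.32, as a dashed line. GGT1, DPP4 and MME lie above the line, the other genes below it, and ANPEP has the widest gap between libraries among the 8 genes with a value above 0 in both.

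GGT1 encodes gamma-glutamyltransferase, which splits glutathione at the cell surface and is the classical histochemical stain of the brush border. The gene (ENSG00000100031.18) lies on chromosome 22 of GRCh37 from 24990778 to 25024972 on the plus strand. Its FPKM was 64.1 in library 1 and 58.1 in library 2, a mean of 61.1 ± 4.30 (SD, n = 2 libraries), above 95.4% of protein-coding genes. It was the highest of the 9, 2.0-fold over the next.

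GGT1 belongs to a family with near-identical copies on the same chromosome, and reads shared between copies could have been split by the transcript estimation, so its level is uncertain to that extent. Over 13 genes whose symbols start with GGT, it took 67.7% of the summed FPKM in library 1 and 65.8% in library 2. GGT7, a more distant relative, took 30.1% and 31.0%, at an FPKM of 28.5 and 27.4. GGTLC2, a light-chain gene, had 1.87 and 2.13, and the remaining 10 genes were below 1 in both libraries. The family's signal was thus carried mainly by GGT1 and GGT7.

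DPP4 encodes dipeptidyl peptidase 4, also known as CD26, which removes N-terminal dipeptides and inactivates the incretin hormones. It lies on chromosome 2 from 162848755 to 162930904 on the minus strand (ENSG00000197635.9). The FPKM was 28.7 and 32.5 in libraries 1 and 2, a mean of 30.6 ± 2.69, above 88.9% of protein-coding genes. The library ranges of DPP4 and GGT1 did not overlap.

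MME encodes neprilysin, a zinc endopeptidase also known as CD10 that degrades natriuretic peptides, enkephalins and amyloid beta. On chromosome 3 it runs from 154741913 to 154901493 on the plus strand (ENSG00000196549.10). Its level was 8.31 and 7.95, a mean of 8.13 ± 0.256, which was 3.76-fold below DPP4 and above 64.1% of protein-coding genes. With GGT1 and DPP4 it completed the group above the median of all genes.

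ENPEP encodes aminopeptidase A, which trims angiotensin II to angiotensin III, and sat at the threshold. The gene (ENSG00000138792.9) lies on chromosome 4 from 111286889 to 111486441 on the plus strand. Its FPKM was 1.06 in library 1 and 0.982 in library 2, a mean of 1.02 ± 0.0528, which was 7.97-fold below MME. The spread between its libraries was small, and it was the fourth in order without overlap to either side.

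ACE encodes angiotensin-converting enzyme, which makes angiotensin II, and its FPKM was 0.467 and 0.348, a mean of 0.407 ± 0.0843. ALPL encodes the tissue-nonspecific alkaline phosphatase, and its FPKM was 0.428 and 0.380, a mean of 0.404 ± 0.0341. The ranges of ACE and ALPL overlapped, so their order is not resolved. Each was above 35.6% of protein-coding genes. ACE (ENSG00000159640.15) lies on the plus strand of chromosome 17 from 61554422 to 61575741, and ALPL (ENSG00000162551.13) on the plus strand of chromosome 1 from 21835890 to 21904903.

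ANPEP encodes aminopeptidase N, also known as CD13, among the most abundant brush border proteins of kidney and gut. In these cells the gene (ENSG00000166825.13, chromosome 15 from 90328126 to 90358633, minus strand) had an FPKM of 0.297 in library 1 and 0.0296 in library 2. The libraries differed 10.0-fold, more than in 97.7% of 1101 genes of like level, whose median difference was 1.61-fold. The values rested on about 2094 and 600 aligned bases. A retained-intron transcript, ENST00000559761.5, was listed at 0.225 in library 1 and at 0 in library 2, while the canonical transcript, ENST00000300060.6, was at 0.0716 and 0.0296. Most of the gap between libraries therefore lay in that single short transcript.

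TREH encodes trehalase, which splits the disaccharide trehalose, and had an FPKM of 0.0752 and 0.0622. MEP1A encodes the alpha subunit of the metalloprotease meprin, and was at 0.0356 in library 1 and listed at 0 in library 2. The library 1 value of MEP1A rested on about 600 aligned bases. MEP1A was the only gene of the 9 listed at 0 in a library, a state shared by 25.2% of protein-coding genes in 1 library or both. The range of ANPEP overlapped those of TREH and MEP1A, so the order of ANPEP against either is not resolved, and no other neighbours overlapped besides ACE and ALPL. TREH (ENSG00000118094.11) occupies chromosome 11 from 118528026 to 118550399 on the minus strand, and MEP1A (ENSG00000112818.9) on the plus strand of chromosome 6 from 46761126 to 46807515.

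The per-gene sums were steadier than their division over transcripts. In GGT1, ENST00000248923.8 had an FPKM of 40.7 in library 1 and 1.20 in library 2, and ENST00000412658.5 had 0.838 and 24.8. ENST00000248923.8 starts at -19451 bases relative to the canonical start and took 63.5% and 2.07% of the gene. It was absent from the GRCh37 annotation, so marks at its start were not scored. Another protein-coding gene, ENSG00000286070, overlaps GGT1 on the same strand, from 24951975 to 25024954 in GRCh37. It had no FPKM of its own in the RNA-seq files. Whether reads from ENSG00000286070 were counted in GGT1 was not tested. The canonical start group, 10 transcripts starting at -54 to 34 bases, took 9.36% in library 1 and 59.7% in library 2. Turning the split of library 1 into that of library 2 required moving 65.2% of the FPKM of GGT1 between transcripts, more than in 97.2% of 10845 genes at an FPKM of 1 or more in both libraries with at least 2 transcripts above 0, whose median was 12.9%. By contrast, 4 transcripts of GGT1 that start 4420 to 4463 bases downstream of the canonical start, in the coordinates of the RNA-seq files, summed to 14.03 and 13.03, or 21.9% and 22.4% of the gene. The level of the gene and the share of this downstream start group were thus similar in both libraries. The assignment among long transcripts and the share of the canonical start group were not.

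In MME the canonical transcript ENST00000360490.6 had 2.59 and 2.36, ENST00000460393.5 had 3.54 and 0.824, and ENST00000615825.1 had 0.169 and 3.94. The share of the MME level that moved was 51.0%, more than in 92.9% of the same genes. DPP4 was the steadiest of the 3, with 13.4% moved, near the median. Its canonical transcript ENST00000360534.7 carried 22.5 and 29.7, or 78.5% and 91.3% of the gene. In ENPEP the canonical transcript ENST00000265162.9 carried 89.7% and 93.1%, so the canonical transcript carried most of its level in both libraries. In ACE the canonical transcript ENST00000290866.9 was listed at 0 in both libraries, and ENST00000428043.5, also protein-coding, had 0.155 and 0.157, or 33.3% and 45.1% of the gene. The remainder went mostly to retained-intron and nonsense-mediated decay transcripts, led in library 1 by the retained-intron transcript ENST00000579462.1 at 0.221 (47.4%), which was at 0.0530 in library 2. By its highest transcript alone, ACE had a mean of 0.156.

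**Figure D2:**
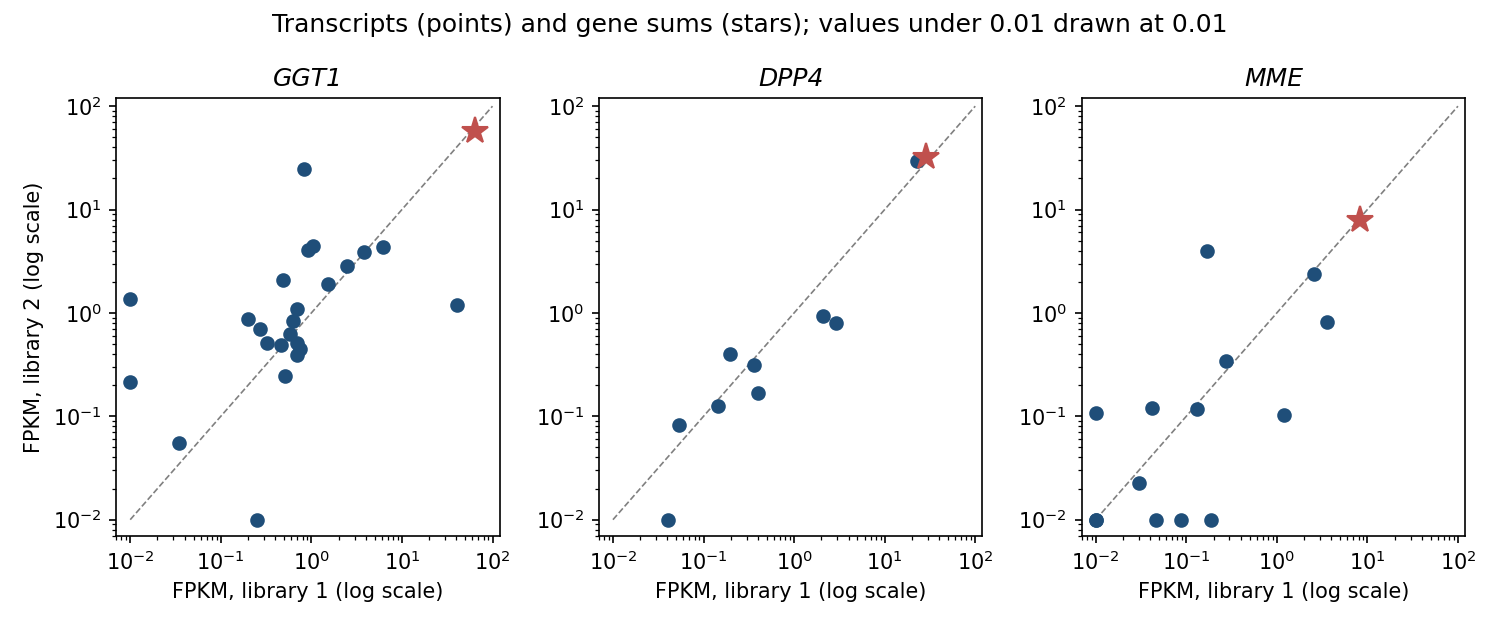
FPKM of each transcript (points) and of the gene sum (stars) in library 1 against library 2, both on log scales, for GGT1, DPP4 and MME. The stars lie near the line of equal values, while 1 GGT1 transcript sits at 40.7 and 1.20 and another at 0.838 and 24.8.

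At the starts, 7 of the 9 genes had an H3K4me3 peak within 1 kb of an annotated TSS in both replicates, against 70.3% of protein-coding genes. The exceptions were TREH and MEP1A, which had no peak of any mark there in either replicate, as did 15.1% of protein-coding genes. H3K27ac was present in both replicates at 3 of 9 (GGT1, DPP4 and ALPL), against 55.0%, and H3K27me3 at 1 of 9 (ANPEP), against 11.4%. The peak lists give no height, so presence and width are what can be compared. Around canonical starts alone, H3K4me3 lay at the same 7 genes (67.1% of protein-coding genes) and H3K27me3 at ANPEP (9.46%). Peaks of replicate 1 were wider over the genome, with medians of 1194 against 434 bp in H3K4me3, 1357 against 657 bp in H3K27ac and 1181 against 535 bp in H3K27me3.

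**Figure D3:**
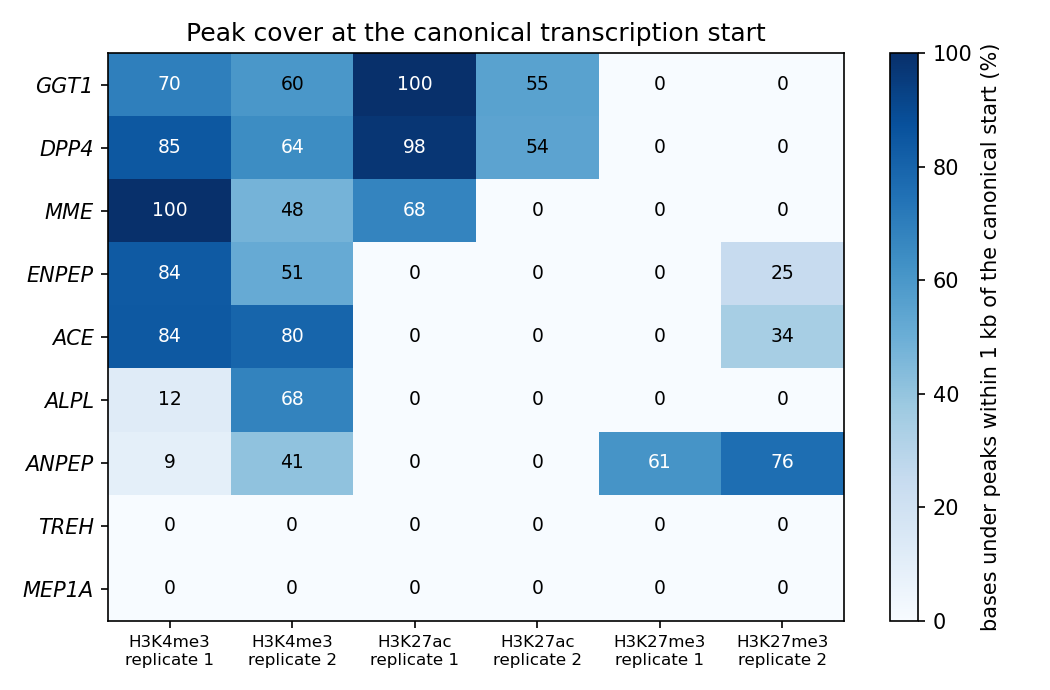
Percent of the bases within 1 kb of the canonical TSS that lie under peaks, for each gene (rows) and each replicate of the 3 marks (columns). H3K27ac covers GGT1 and DPP4 in both replicates and MME in replicate 1, and H3K27me3 covers ANPEP in both and ENPEP and ACE in replicate 2.

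GGT1 and DPP4 carried both promoter marks within 1 kb of the canonical TSS in both replicates. In GGT1, H3K4me3 peaks covered 69.5% and 59.9% of the bases within 1 kb in replicates 1 and 2, and H3K27ac peaks covered 100% and 55.4%. The H3K27ac peaks of replicate 2 flanked the GGT1 TSS, from -1722 to -815 and from 78 to 1646 bases, while that of replicate 1 lay over it. A further pair of peaks in each replicate lay downstream, H3K4me3 from 4094 to 5621 bases after the TSS in replicate 1 and from 4418 to 5697 in replicate 2, with H3K27ac from 2922 to 5749 and from 3171 to 5174. Annotated starts of GGT1 lie there, and these peaks sit at the distance of the downstream start group described above. Peaks of both marks about 10 kb upstream of the canonical TSS lie within 1 kb of the TSS of LRRC75B, a gene on the opposite strand with an FPKM of 5.05 and 6.15, and cannot be assigned to GGT1 alone.

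In DPP4, H3K4me3 covered 84.7% and 64.3% and H3K27ac 97.6% and 54.4% of the bases within 1 kb. The H3K27ac peak over the TSS was 7953 bp wide in replicate 1 and 1089 bp in replicate 2. The divergent noncoding gene DPP4-DT starts within 1 kb of these peaks and was listed at 0 and 0.0978. Over and beside the body of DPP4 there were 7 H3K27ac peaks in replicate 1 and 3 in replicate 2, counting those at the TSS, and all 3 of replicate 2 overlapped a peak of replicate 1. Those peaks were at the TSS, 14306 to 14655 bases into the gene, and 82679 to 83155 bases from the TSS, just past its end.

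MME had H3K4me3 over its TSS in both replicates, covering 100% and 47.5% of the bases within 1 kb. H3K27ac lay there in replicate 1 only, covering 67.6%, and counting either replicate gave 4 of 9 genes with H3K27ac, against 67.6% of protein-coding genes. The nearest H3K27ac peak of replicate 2 lay from -9710 to -8773 bases relative to the canonical TSS. It overlapped a replicate 1 peak from -10520 to -8220 bases and fell inside the annotated gene, which has more distant upstream starts. It was the only H3K27ac peak of MME shared by the replicates.

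ENPEP and ACE shared a pattern. H3K4me3 covered 83.7% and 51.2% of the bases within 1 kb of the ENPEP TSS and 84.3% and 79.6% of those at ACE, and no H3K27ac peak lay within 1 kb of either. Within 1 kb of these starts, H3K27me3 was called in replicate 2 only. It formed a 492-bp peak from 179 to 670 bases after the TSS of ENPEP and a 689-bp peak ending 28 bases before that of ACE. Farther away within ENPEP, H3K27me3 peaks of 2253 and 2142 bp were called in replicate 1. They lay at -86122 to -83870 and -76468 to -74327 bases from the canonical TSS and overlapped no replicate 2 peak. Counting either replicate raised the H3K27me3 genes from 1 to 3 of 9, against 16.2% of protein-coding genes. Within ENPEP, H3K27ac peaks of the 2 replicates overlapped at 8927 to 9251 and at 57430 to 57884 bases after the TSS (replicate 2 limits). H3K4me3 peaks of both replicates also overlapped upstream, at -65408 to -63817 bases in replicate 1 and -65508 to -64528 in replicate 2. An H3K27ac peak overlapped them in replicate 1 only. The nearest H3K27ac peak to the ACE start was 28865 bases away in replicate 1 and 29494 in replicate 2.

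ALPL counted among the H3K27ac genes only through an internal start. At the canonical TSS, H3K4me3 was a 239-bp peak in replicate 1 and covered 67.7% of the bases within 1 kb in replicate 2, with no H3K27ac. H3K27ac peaks lay at 65013 to 65785 bases after the TSS in replicate 1 and at 65135 to 65570 in replicate 2. The annotated start of ENST00000374829.2 lies there, a transcript without a defined coding sequence that was at an FPKM of 0.136 in library 1 and listed at 0 in library 2. At canonical starts alone, 2 of 9 genes had H3K27ac in both replicates, GGT1 and DPP4, against 51.0% of protein-coding genes.

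ANPEP was the only gene of the 9 with H3K27me3 at its start in both replicates, in peaks of 1220 and 1524 bp that covered 61.0% and 76.2% of the bases within 1 kb. H3K4me3 was narrow there, 186 bp in replicate 1 and 817 bp in replicate 2, and overlapped the H3K27me3 peaks. Among genes with an H3K4me3 peak near the canonical TSS the median cover was 1788 and 1328 bp in replicates 1 and 2, so both ANPEP values were below it. H3K4me3 and H3K27me3 in both replicates occurred in 7.02% of protein-coding genes. As its upstream sequence above shows, this start is dense in CpG, and the median over genes with both of these marks in both replicates was 28.

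**Figure D4:**
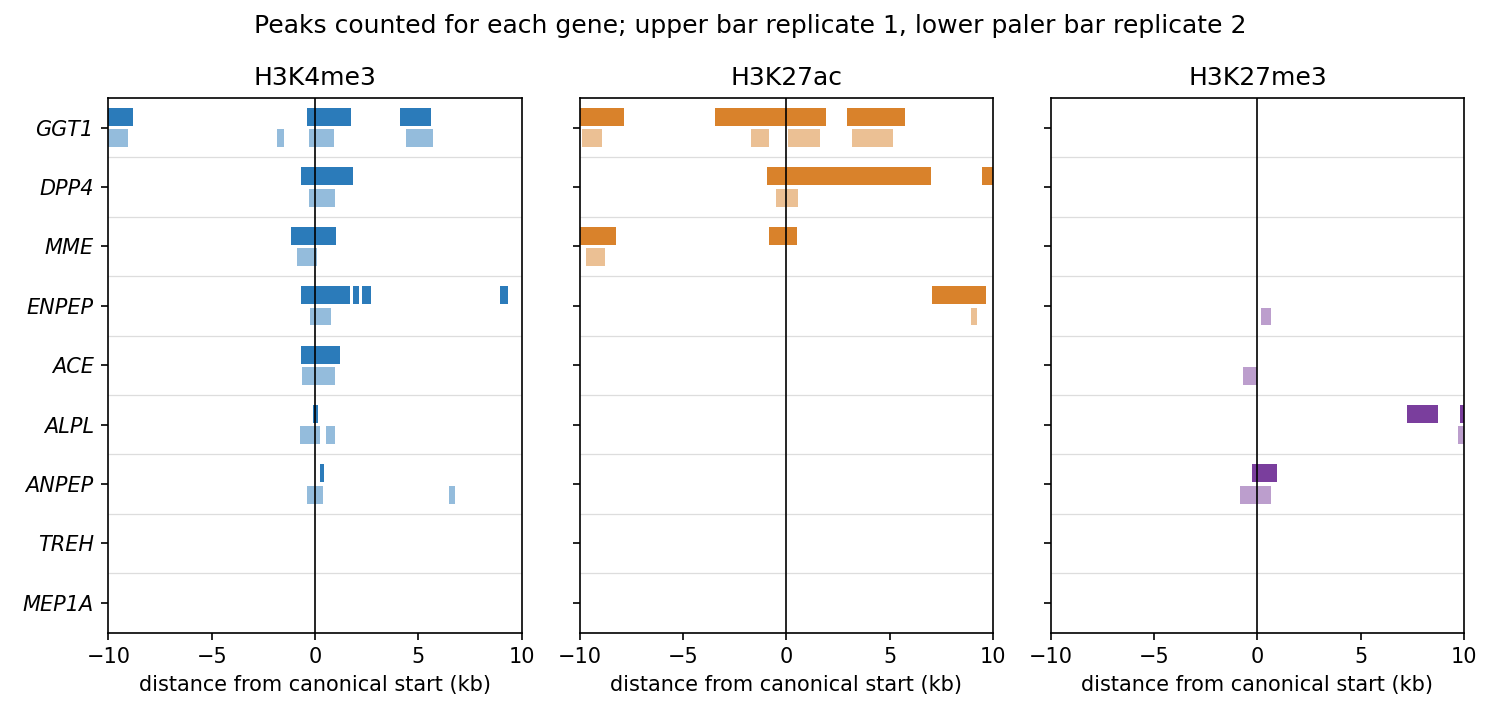
Peaks of each mark counted for each gene, by distance from the canonical TSS in kb, from 10 kb upstream to 10 kb downstream, with replicate 1 in the upper bars and replicate 2 in the lower, paler bars. Only peaks over a gene or within 1 kb of its limits were drawn. GGT1 has marked starts at 0 and again between 4 and 6 kb, and the rows of TREH and MEP1A are empty. Outside those limits, the nearest H3K27me3 peak of replicate 1 lay 4338 bases from the MEP1A TSS.

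TREH and MEP1A had no peak over their starts, but both had peaks within their bodies. In TREH, H3K27ac peaks of both replicates overlapped about 20 kb after the TSS, at 20035 to 21572 and 20212 to 20741 bases. They started at 118528787 and 118529618 on chromosome 11, past the annotated end of the convergent gene PHLDB1 at 118528741, whose body overlaps the last bases of TREH and whose FPKM was 45.1 and 44.4. No TSS of another gene lay within 1 kb of these peaks. In MEP1A, 5 H3K27me3 peaks were called in replicate 1 and 1 in replicate 2, and none overlapped between replicates. They covered 8.68% of the gene body in replicate 1 and 0.470% in replicate 2. An H3K4me3 peak was also called within MEP1A, in replicate 2 only.

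Each gene could be set beside the genes with the same presence of the 3 marks in the 2 replicates near any TSS. GGT1 and DPP4, with H3K4me3 and H3K27ac in both replicates and no H3K27me3 (3 of 9 with ALPL, against 51.4% of protein-coding genes), were above 91.5% and 79.7% of 10093 such genes, whose median FPKM was 11.8. ALPL, in the same class, was above only 3.95% of them. Classed at its canonical TSS alone, where it had H3K4me3 without H3K27ac, ALPL was above 50.9% of 316 genes with a median of 0.385. Its level was thus near the median of genes marked as its main start was.

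MME, with H3K27ac in replicate 1 only, was above 70.3% of 1666 genes whose median was 3.97. ENPEP and ACE were above 83.3% and 68.5% of the 54 genes with their pattern, whose median was 0.153. ANPEP was above 68.9% of 856 genes with a median of 0.0533. TREH and MEP1A were in a class of 2971 genes with a median of 0. By mean FPKM, every gene apart from ALPL in the class by any TSS lay above the median of its class. For TREH and MEP1A that median was 0, so any value above 0 passes, and MEP1A was listed at 0 in library 2. ANPEP passed through library 1, as its library 2 value of 0.0296 was below its class median.

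**Figure D5:**
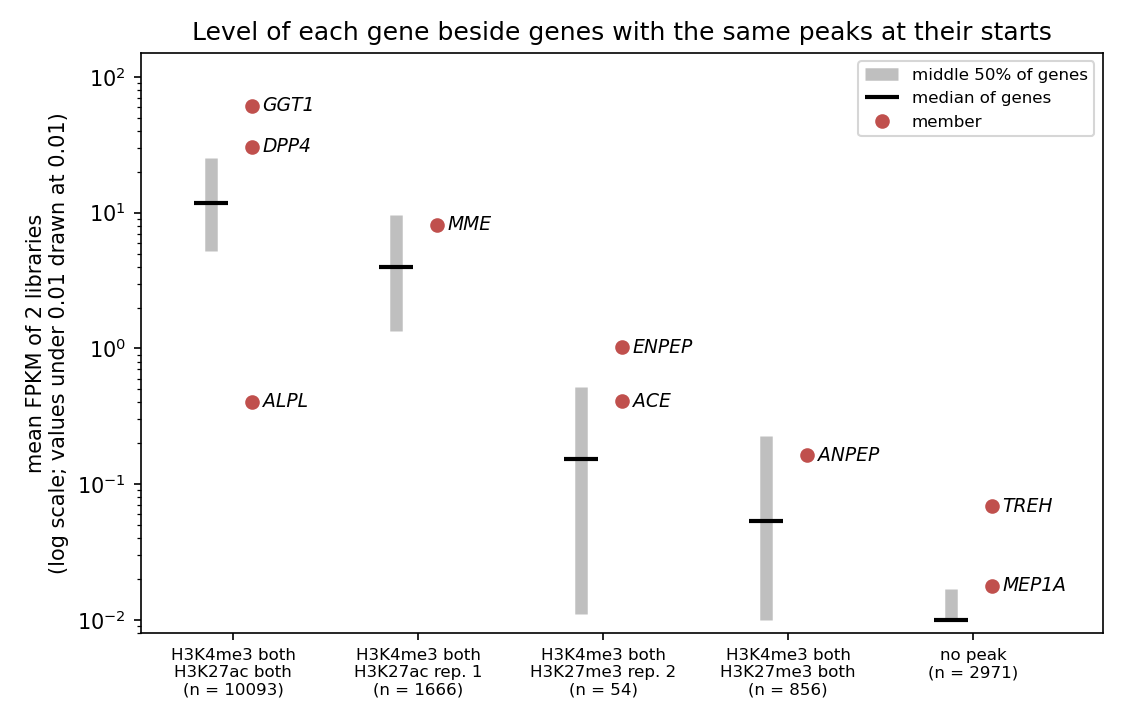
Mean FPKM of each gene (points, log scale) beside the middle 50% (grey) and median (black) of protein-coding genes with the same peaks within 1 kb of a TSS, by mark class. By mean FPKM, the order of the classes and the order of the genes run together except for ALPL, which lies under the middle 50% of its class. The order of ANPEP against TREH and MEP1A is not resolved between the libraries. MEP1A averages 0.0356 and a listed 0.

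Other genes of the same biology give the setting. Over all protein-coding genes, 58.8% reached an FPKM of 1 in both libraries and 25.2% were listed at 0 in 1 library or both. Of 14 further brush border enzymes, 1 reached an FPKM of 1 in both libraries, NT5E, the 5′-nucleotidase also known as CD73, at 8.83 ± 0.374, and 8 were listed at 0 in both. ENPP3, a nucleotide pyrophosphatase, followed at 0.406 ± 0.00995, and CA4, a membrane carbonic anhydrase listed at 0, had H3K27me3 in both replicates. As with the 9 genes, most of these surface enzymes were below the threshold. Whether each of the 14 is normally made in the kidney tubule, and not only in other tissues such as the intestine, was not checked.

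In the renin-angiotensin system, in which ACE and ENPEP act, 6 of 11 genes reached an FPKM of 1 in both libraries. The share over all protein-coding genes was 58.8%. The highest were ATP6AP2, the prorenin receptor, at 32.4 ± 2.80, and THOP1, a soluble endopeptidase, at 23.4 ± 3.66. MAS1, a receptor for angiotensin 1-7, was listed at 0 in both libraries with H3K27me3 in both replicates. In glutathione turnover, in which GGT1 acts, 10 of 11 genes reached an FPKM of 1, with GSS, glutathione synthetase, at 43.8 ± 0.168 and LAP3, leucine aminopeptidase, at 32.2 ± 2.64. The exception was the brush border dipeptidase DPEP1, listed at 0 in both, which acts just after GGT1 on the cell surface.

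Among 24 sequence relatives of the 9 enzymes, 11 reached an FPKM of 1 in both libraries, against 58.8% of protein-coding genes. They were led by the aminopeptidase RNPEP at 52.8 ± 4.09 and the endothelin-converting enzyme ECE1 at 51.8 ± 2.08. Of the 23 relatives scored for marks, 5 had H3K27me3 at their starts in both replicates, against 11.4% of protein-coding genes. They were TRHDE, DPP6, ECE2, MMEL1 and ECEL1. Of these only ECE2 reached the threshold, at 4.63 ± 0.187, and DPP6, MMEL1 and ECEL1 were listed at 0. Of 14 genes for the structure of the brush border, 6 reached an FPKM of 1, with EZR, the microvillar linker ezrin, at 201 ± 6.91 and its partner NHERF1 at 25.5 ± 2.06. H3K27me3 marked ESPN (1.04 ± 0.366) and USH1C (0.519 ± 0.155) in both replicates, and neither reached an FPKM of 1 in both libraries. The other genes below it were, by mean FPKM, CDHR5 (0.272), MYO7B (0.113), CDHR2 (0.109), MYO1A (0.0175), ANKS4B (0.0125) and VIL1 (0.0112). EZR, which also serves cells without a brush border, was above all 9 enzyme genes, and NHERF1 above all but GGT1 and DPP4.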

How the data were processed

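RNA-seq had 2 libraries and ChIP-seq 2 replicates of each of 3 marks, all of HK2 cells. The authors trimmed reads with cutadapt, aligned ChIP-seq reads to hg19 with Bowtie2, kept unique reads and ran MACS2 on single replicates. The deposited peak lists hold the chromosome and limits only. The 1 list of each mark without a number in the labels was taken as replicate 1. For RNA-seq, the authors mapped with HISAT2 and deposited FPKM, TPM and coverage per transcript from StringTie 1.3.3. The paper names hg19 for this step, while the file headers name GENCODE 27, a GRCh38 annotation, so genes were joined by Ensembl identifier, and coordinates of the 2 builds were kept apart. TSS positions and gene limits came from GENCODE 44 mapped to GRCh37, and upstream sequences from the GRCh37 genome.

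FPKM was summed per gene, and aligned bases were computed as coverage times length. A mark was present where a peak came within 1 kb of a TSS, and counts use both replicates unless stated otherwise. With 1 condition no test between groups was made, and counts are read against all protein-coding genes. The overlap functions were tested on simulated data (2000 genes, 0 wrong calls). The 9 genes and the lists were chosen with earlier results of these data known. Beyond the 9, genes were named by rule: the 2 highest of each list, those with H3K27me3 in both replicates, the GGT family, and neighbours sharing peaks or overlapping a gene. DPEP1 and the brush border structure genes below the threshold without H3K27me3 in both replicates were named after their values were seen. Read depth per peak is unknown, and the number of fragments per gene was not used. By the paper's statistics, the fraction of reads in peaks was much higher in replicate 1 than in replicate 2 for H3K27ac. For H3K4me3 it was also higher in replicate 1, and for H3K27me3 it was low in both. Whether peaks called in 1 replicate only follow from such differences was not tested. Python 3.11.15, numpy 2.4.6, pandas 2.3.3 and matplotlib 3.10.9 were used.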

Additional observations from a re-analysis of the deposited data

How the results depend on the processing

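With TPM of 1 in place of FPKM, the number of brush border genes at the threshold in both libraries rose from 3 to 5, adding ENPEP and ALPL (63.8% of protein-coding genes passed), and that of other brush border enzymes from 1 to 2, adding ENPP3. Markers of other cell types went from 1 to 2, adding PDGFRB, with TPM of 1 and with a threshold of 0.5. Proximal tubule markers went from 1 to 0 with the highest transcript of each gene only and with a threshold of 5. TPM was 2.76 and 2.78 times FPKM in the libraries, so a TPM of 1 is a lower bar. The count of brush border genes with H3K27me3 in both replicates, 1, ranged from 1 to 3 when a replicate was left out, and was 3 with either replicate, since ENPEP and ACE had peaks in replicate 2 only. Counts at TSS windows of 500 bp and 2 kb, at canonical TSS and with peaks of at least 500 bp stayed within 1.5 times of the values given. With its highest transcript only, GGT1 had a mean FPKM of 21.0, MME 2.47 and ACE 0.156, because their FPKM is divided among transcripts. Of 27 shares of gene bodies under peaks, 7 rose by more than the SD between replicates without replicate 1 and 15 without replicate 2, since requiring both replicates can only lower a share. No paired analysis was possible because no result comes from a test between groups. With 2 libraries an SD is itself imprecise, and the level of MEP1A, resting on 600 aligned bases in 1 library, was not resolved from 0.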

Other observations

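Peaks called for the 9 genes matched between replicates to different degrees by mark. For H3K27ac, 12 of 26 replicate 1 peaks and 10 of 10 replicate 2 peaks overlapped a peak of the other replicate, against 44.1% and 97.4% over the genome. For H3K4me3, it was 9 of 13 and 9 of 29, against 58.9% and 24.5%, and for H3K27me3 2 of 10 and 2 of 4, against 32.9% and 67.0%. Many of the unmatched H3K4me3 peaks of replicate 2 lay along ALPL, where 13 H3K4me3 peaks were called in that replicate and 2 in replicate 1.

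The share of the gene body under peaks of both replicates was largest in GGT1 for the active marks, with 7.02% for H3K4me3 and 13.1% for H3K27ac, above 80.6% and 91.6% of protein-coding genes. For H3K27me3 it was 3.08% in ANPEP, above 93.1% of genes, and 0.535% in ALPL, where the peaks of both replicates overlapped 9802 to 10170 bases after the TSS. The other 7 genes had 0%.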
